A study of Mus musculus with 12 samples.

Results

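The genes described here act just below the B cell receptor: the kinases Lyn, Syk and Btk, the adaptors Blnk and Bank1, the effector enzymes Plcg2 and Prkcb, and the phosphatases Ptpn6 and Ptprc. They were chosen by gene symbol, and all 9 were found among the 51826 genes listed in each library. Of these, 8 had reads and passed the filter on low counts, while Prkcb had 0 reads in every library. The genes lie on 9 different chromosomes.

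Transcripts were counted by 3′ mRNA sequencing, which reads the end of each polyadenylated transcript, in 12 libraries of 19DN cells. This is a mouse B cell lymphoma subline of 19PP, a line that arose in a Rag2-/-γC-/- host given bone marrow of the genotype Cγ1-Cre; Myc/P110*flSTOP, in which Cre expressed from the Cγ1 locus turns on Myc and an active form of the PI3K subunit P110. The GFP and hCD2 reporters had been deleted in 19DN. The cells carried RPL12, a protein of the large ribosomal subunit, with serine 38 replaced by aspartate (S38D) or by alanine (S38A), or wild-type RPL12 (WT). Each of these 3 lines was collected mitotic, after exposure to the microtubule poison nocodazole (100 ng/mL, 8 h) and release into fresh medium for 10 min, and asynchronous, with 2 libraries in each of the 6 groups. Cycloheximide at 100 µg/mL, which halts translation, was present at harvest in all groups. How the RPL12 alleles were introduced, and whether each line is 1 clone, is not given in the labels, so a difference between lines cannot be told apart from a difference between clones. The labels name nocodazole for the mitotic cells alone, so cell state and drug cannot be told apart either.

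When antigen crosslinks the B cell receptor, the Src family kinase Lyn phosphorylates the tails of the receptor's signalling subunits, which recruit and activate Syk. Syk phosphorylates the adaptor Blnk (also called SLP-65), which brings Btk to its substrate, phospholipase C gamma 2 (Plcg2), and the lipid products release calcium and activate protein kinase C beta (Prkcb). Bank1 is a scaffold that binds Lyn and calcium channels. The phosphatase Ptpn6 (SHP-1) acts on receptor-proximal proteins at inhibitory co-receptors, and Ptprc (CD45) removes the inhibitory phosphate from Src family kinases.

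Promoter windows from 250 bases before to 50 bases after the annotated start were available for 8 of the 9 genes, all but Lyn, in 10 windows credited to RefSeq on GRCm38.p6. They were searched on both strands for 4 short motifs named after B lineage transcription factors. The octamer ATGCAAAT, the motif of Oct factors in immunoglobulin promoters, was in 2 of the 10 windows and in 1.74% of all 32851 windows. It was found in the windows of Blnk and Prkcb, which are shown because Blnk had the most reads of the 9 genes and Prkcb had none. The E-box CAGGTG, a motif of E2A, was in 6 of the 10 windows, both windows of Syk among them, and in 20.2% of all windows. It is shown for Ptpn6, which fell in mitotic cells, and for Plcg2, which did not pass that test. The PU.1 core GAGGAA was in 3 of the 10 and in 28.3% of all windows, and the EBF1 core CCCNNGGG in 1 of the 10 and in 13.7%. The sequences run 5′ to 3′ in the direction of transcription, with the octamer and E-box matches in capitals (ATTTGCAT and CACCTG are matches on the opposite strand). A match is a string of letters in this window and was not tested for binding. The Blnk window spans chr19:40994172-40994471 on the minus strand, Prkcb chr7:122288875-122289174 on the plus strand, Plcg2 chr8:117498025-117498324 on the plus strand and Ptpn6 chr6:124738660-124738959 on the minus strand.
Blnk: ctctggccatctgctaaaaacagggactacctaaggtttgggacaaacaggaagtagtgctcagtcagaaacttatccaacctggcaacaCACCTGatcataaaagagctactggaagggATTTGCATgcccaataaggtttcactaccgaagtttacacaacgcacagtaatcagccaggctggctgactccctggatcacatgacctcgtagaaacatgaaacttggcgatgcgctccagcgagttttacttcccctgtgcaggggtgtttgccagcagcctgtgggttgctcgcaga
Prkcb: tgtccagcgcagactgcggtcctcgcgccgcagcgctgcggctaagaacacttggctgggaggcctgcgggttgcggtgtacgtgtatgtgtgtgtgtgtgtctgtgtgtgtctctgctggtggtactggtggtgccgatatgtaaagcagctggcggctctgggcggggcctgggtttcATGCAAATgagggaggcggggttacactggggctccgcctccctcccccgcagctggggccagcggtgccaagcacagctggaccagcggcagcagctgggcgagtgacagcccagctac
Plcg2: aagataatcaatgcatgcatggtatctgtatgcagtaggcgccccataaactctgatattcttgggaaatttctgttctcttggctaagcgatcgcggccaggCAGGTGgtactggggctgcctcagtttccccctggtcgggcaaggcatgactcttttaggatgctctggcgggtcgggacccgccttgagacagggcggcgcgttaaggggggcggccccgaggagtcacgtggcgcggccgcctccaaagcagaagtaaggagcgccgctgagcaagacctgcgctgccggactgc
Ptpn6: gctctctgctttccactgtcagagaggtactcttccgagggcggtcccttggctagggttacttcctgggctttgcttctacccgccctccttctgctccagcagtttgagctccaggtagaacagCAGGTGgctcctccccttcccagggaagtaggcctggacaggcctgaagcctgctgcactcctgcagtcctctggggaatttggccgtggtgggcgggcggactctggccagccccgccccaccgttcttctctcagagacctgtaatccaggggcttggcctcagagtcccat

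Each library held between 3432875 and 6587997 gene reads. Levels below are TMM-scaled CPM, the count of a gene relative to all gene reads of its library, a scale on which 1 gene can be compared between libraries. The count of 1 of the 8 genes in 1 library ranged from 41 reads (Bank1) to 3464 reads (Blnk). The larger value of a replicate pair exceeded the smaller by 1.01 to 1.47 times over the 48 pairs. S38D asynchronous replicate 1 and WT mitotic replicate 1 lay far from their replicates over all genes. With 2 libraries in a group, which of the 2 departs cannot be told. Calls of members that change when either replicate 1 is left out are named with the results below. Some that change without the other replicate are named as well. ERCC spike-in RNA made up 2.29% and 2.7% of gene reads in the WT asynchronous libraries and 2.83% to 3.6% in the others, so that scaling to the spike-ins moves comparisons with that group. Of 10 B lineage markers, 10 had reads, and their summed level was 1417 to 2120 CPM in mitotic libraries and 2411 to 3322 CPM in asynchronous libraries. Blk, a Src family kinase of B cells, had 19 reads over all libraries. The 12 markers of T and NK cells summed to 3.29 to 6.87 CPM in mitotic libraries and 3.0 to 7.42 CPM in asynchronous libraries, with Cd3e, Cd3g, Cd4, Cd8a, Thy1 and Ncr1 at 0. The 12 myeloid markers summed to 0.355 to 3.44 CPM in mitotic libraries and 0.517 to 2.3 CPM in asynchronous libraries, with Itgam, Cd14, Elane, Csf3r, S100a8 and S100a9 at 0. The 12 stromal, epithelial and erythroid markers summed to 3.02 to 4.43 CPM in mitotic libraries and 2.55 to 6.73 CPM in asynchronous libraries, with Col1a2, Krt8, Krt18 and Hba-a1 at 0.

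In mitotic cells, 7 of the 8 measured genes were lower than in asynchronous cells over the 3 lines, and none was higher. The scaffold Bank1, the kinase Syk and the phosphatase Ptpn6 fell most, to levels between 1.85 and 2.14 times below those of asynchronous cells. The phosphatase Ptprc, the kinases Lyn and Btk and the adaptor Blnk fell by smaller amounts, and Plcg2 did not pass the test. Of the 10477 genes tested, 42.1% were called in this comparison and 21.6% were called lower, by edgeR quasi-likelihood F tests with Benjamini-Hochberg adjustment over all genes at 0.05. The median log2 fold change was -0.61 over the 8 genes and -0.02 over all genes.

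**Figure D1:**
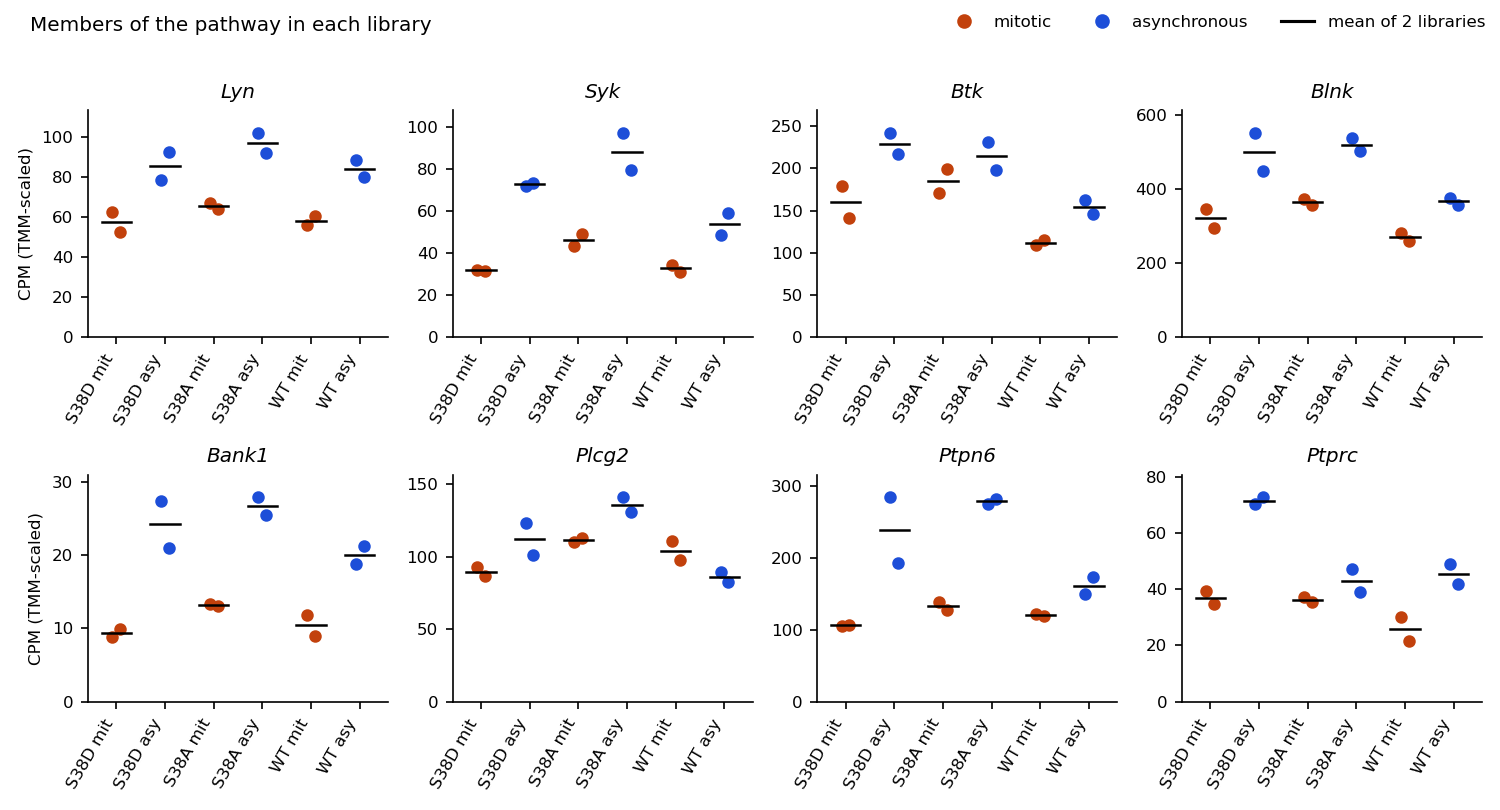
Level of the 8 genes with reads in each library, in TMM-scaled CPM on linear axes that start at 0; each point is 1 library, each bar the mean of the 2 libraries of a group, with mitotic groups in orange and asynchronous groups in blue. Mitotic points lie below the asynchronous points of the same line for 7 genes, except in the S38A line for Btk, where the ranges overlap, and Plcg2 in WT runs the other way.

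Lyn (chromosome 4, 3678115 to 3813122, GRCm38), the Src family kinase that starts the cascade, had 62.6 and 52.7 CPM in S38D, 66.9 and 64.2 CPM in S38A and 55.9 and 60.6 CPM in WT mitotic libraries. Its values in asynchronous libraries were 78.3 and 92.3 CPM in S38D, 102 and 91.9 CPM in S38A and 88.4 and 79.9 CPM in WT. All 6 mitotic libraries lay below all 6 asynchronous ones. The log2 fold change over the lines was -0.55 (SE 0.0785, adjusted p = 3.35e-05), and the values of the 3 lines were -0.56 in S38D, -0.56 in S38A and -0.53 in WT.

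Syk (chromosome 13, 52583173 to 52648792) encodes the kinase that docks on the phosphorylated receptor subunits. It had 31.9 and 31.7 CPM in S38D, 43.2 and 48.9 CPM in S38A and 34.6 and 30.9 CPM in WT mitotic libraries. Asynchronous libraries held 72.1 and 73.2 CPM in S38D, 97.1 and 79.5 CPM in S38A and 48.7 and 59.2 CPM in WT. The states were apart within each line and met over the lines, since the higher S38A mitotic library reached the lower WT asynchronous one. Syk had a log2 fold change of -0.95 over the lines (SE 0.086, adjusted p = 3.52e-07), with -1.19 in S38D, -0.94 in S38A and -0.71 in WT.

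Btk (chromosome X, 134542336 to 134583570), the Tec family kinase that activates phospholipase C gamma 2, had 179 and 141 CPM in S38D, 171 and 199 CPM in S38A and 109 and 115 CPM in WT mitotic libraries. Asynchronous libraries gave 242 and 217 CPM in S38D, 231 and 198 CPM in S38A and 163 and 146 CPM in WT. The states were apart in S38D and in WT and overlapped in S38A. Over the lines Btk had a log2 fold change of -0.40 (SE 0.0777, adjusted p = 0.000613).

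Blnk (chromosome 19, 40928927 to 40994535), the adaptor that assembles Btk and Plcg2, had 345 and 296 CPM in S38D, 373 and 356 CPM in S38A and 281 and 259 CPM in WT mitotic libraries. In asynchronous cells the values were 551 and 449 CPM in S38D, 537 and 503 CPM in S38A and 375 and 358 CPM in WT. The states were apart within each line. Blnk had a log2 fold change of -0.53 over the lines (SE 0.0686, adjusted p = 1.29e-05), with -0.64 in S38D, -0.51 in S38A and -0.44 in WT.

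Bank1 (chromosome 3, 136053363 to 136326066), the scaffold, had 8.86 and 9.97 CPM in S38D, 13.4 and 13.1 CPM in S38A and 11.9 and 9.0 CPM in WT mitotic libraries. Its values in asynchronous libraries were 27.4 and 21.0 CPM in S38D, 27.9 and 25.5 CPM in S38A and 18.8 and 21.3 CPM in WT. All mitotic libraries lay below all asynchronous ones. Its log2 fold change of -1.10 (SE 0.118, adjusted p = 2.09e-06) was the largest in size among the 8 genes. Bank1 also had the fewest reads of them, 350 in the mitotic and 787 in the asynchronous libraries. Its 3′ end lies under an annotated antisense gene, Gm31243, which had 0 reads; whether counting used strand is not given in the sources used here.

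Plcg2 (chromosome 8, 117498291 to 117635142), the phospholipase, had 92.7 and 86.4 CPM in S38D, 110 and 113 CPM in S38A and 111 and 97.6 CPM in WT mitotic libraries. Asynchronous libraries held 123 and 101 CPM in S38D, 141 and 131 CPM in S38A and 89.2 and 82.8 CPM in WT. The mitotic libraries lay lower in both mutant lines and higher in WT. The log2 fold change over the lines was -0.11 (SE 0.0726, adjusted p = 0.252). It was -0.32 in S38D (adjusted p = 0.0733), -0.29 in S38A (adjusted p = 0.14) and 0.28 in WT (adjusted p = 0.115), and the WT value was -0.16 when libraries were scaled to the spike-ins (adjusted p = 0.407). Under that scaling the value within S38D passed (-0.42, adjusted p = 0.049). Over the lines that scaling shifted the median of all genes by -0.18, and the value was -0.28 (adjusted p = 0.0128), also past the threshold. The same value also passed without S38D asynchronous replicate 2 (-0.15), and the value within S38D was then -0.46. Without S38D asynchronous replicate 1, the values within S38A (-0.31, adjusted p = 0.0257) and within WT (0.28, adjusted p = 0.0399) passed.

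Prkcb (chromosome 7, 122288751 to 122634402), the kinase that links the phospholipase to NF-kB in normal B cells, had 0 reads among 64425668 gene reads, which allows up to 3 reads or 0.0466 CPM (before TMM scaling) over all libraries. In the shallowest library the same limit is 0.874 CPM. These limits cover counting error only, because reads of an amplified library are not independent molecules. A 3′ library reads transcript ends, and whether the Prkcb end used in these cells lies within the annotation used for counting was not tested, so a count of 0 is a count on that annotation and not a limit on expression. Other protein kinase C genes, which were looked up after the Prkcb value was seen, had reads: Prkcd had 18838 reads over all libraries, Prkca 4012, Prkce 3601, Prkci 1202, Prkcz 168 and Prkch 6, while Prkcq had 0. Prkce averaged 41.2 ± 7.42 CPM in mitotic libraries and 68.5 ± 12.2 CPM in asynchronous libraries (SD, n = 6 each), with a log2 fold change of -0.73 (SE 0.086, adjusted p = 5.33e-06). Prkcd, an isoform known to act in B cell tolerance, averaged 237 ± 55.6 CPM in mitotic libraries and 360 ± 117 CPM in asynchronous libraries and did not pass the test (adjusted p = 0.137).

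Ptpn6 (chromosome 6, 124720707 to 124738714), the inhibitory phosphatase SHP-1, had 105 and 107 CPM in S38D, 138 and 128 CPM in S38A and 122 and 119 CPM in WT mitotic libraries. Asynchronous libraries gave 284 and 193 CPM in S38D, 275 and 282 CPM in S38A and 150 and 173 CPM in WT. All mitotic libraries lay below all asynchronous ones, and the S38D asynchronous replicates stood furthest apart of any pair of this gene. Ptpn6 had a log2 fold change of -0.89 over the lines (SE 0.0853, adjusted p = 6.65e-07), with -1.17 in S38D, -1.07 in S38A and -0.42 in WT.

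Ptprc (chromosome 1, 138062861 to 138175708), the receptor-type phosphatase CD45, had 39.3 and 34.6 CPM in S38D, 37.1 and 35.5 CPM in S38A and 30.2 and 21.7 CPM in WT mitotic libraries. In asynchronous cells the values were 70.4 and 72.7 CPM in S38D, 47.1 and 39.0 CPM in S38A and 49.1 and 41.7 CPM in WT. The states were apart within each line, by a wide gap in S38D and a narrow one in S38A. The log2 fold change over the lines was -0.67 (SE 0.0972, adjusted p = 4.42e-05).

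The 7 calls held in each of the 12 fits that left out 1 library and in every other setting tried. The summed level of the B lineage markers given above was also lower in every mitotic library than in any asynchronous one, and their part in this result was not tested. In bulk RNA, fewer cells that express a gene and less of its RNA per cell cannot be told apart.

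Within the lines, the count of genes that fell was 7 of 8 in S38D, 5 of 8 in S38A and 7 of 8 in WT. The shares of all tested genes called lower were 14.8% in S38D, 8.06% in S38A and 12.7% in WT. In S38A, Btk (-0.22, adjusted p = 0.312), Ptprc (-0.25, adjusted p = 0.355) and Plcg2 missed the threshold. In S38D and in WT, Plcg2 was the gene that did not pass with TMM scaling. With spike-in scaling Plcg2 passed in S38D (-0.42, adjusted p = 0.049), and Lyn did not pass in S38A (-0.54, adjusted p = 0.0772). The WT count rests on all 4 of its libraries: it was 2 without WT asynchronous replicate 1 and 3 without WT asynchronous replicate 2 or either WT mitotic library. Without WT mitotic replicate 1, the calls of Lyn, Btk, Blnk and Ptpn6 were lost (adjusted p = 0.111, 0.156, 0.0611 and 0.195). The WT call of Ptpn6 (adjusted p = 0.0495) was kept in 2 of the 12 fits with a library left out. The S38A count was 3 without S38A asynchronous replicate 1 or S38A mitotic replicate 2. The S38D count was 4 when the fit held the S38D libraries alone.

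**Figure D2:**
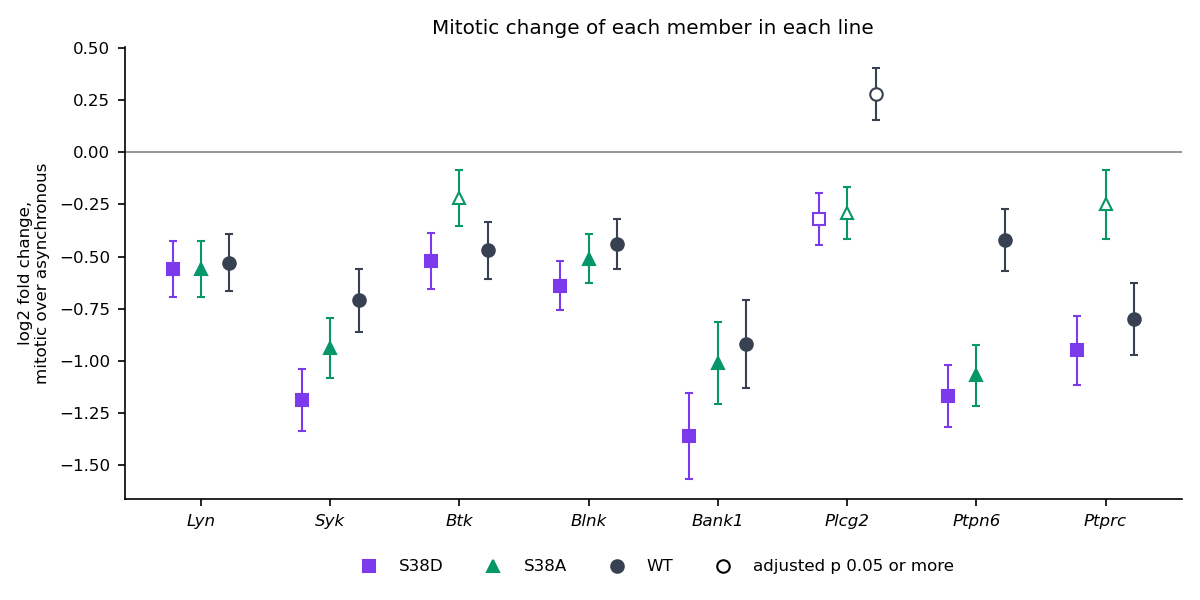
Mitotic over asynchronous log2 fold change (y axis) of the 8 tested genes in the S38D, S38A and WT lines, with bars of 1 SE; open symbols have an adjusted p of 0.05 or more. All points lie below 0 except Plcg2 in WT at 0.28, and the lines lie closest for Lyn.

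Whether the mitotic change itself differed between lines was tested as a difference of differences, and no member passed in any of the 3 contrasts by edgeR or by DESeq2. Over all genes, 0.401% were called for S38D minus WT, 0.993% for S38A minus WT and 0.0382% for S38D minus S38A. At an unadjusted p below 0.05 there were 3, 3 and 1 members in these contrasts. The shares of all genes above are at an adjusted p below 0.05 and cannot be set beside these counts. For Ptpn6 the difference was -0.76 for S38D minus WT (SE 0.209, adjusted p = 0.104) and -0.65 for S38A minus WT (SE 0.208, adjusted p = 0.125). For Plcg2 it was -0.60 (SE 0.179, adjusted p = 0.122) and -0.57 (SE 0.178, adjusted p = 0.121). These 2 genes were lower in mitotic mutant cells than the WT change would give, by amounts that did not pass over all genes with every library in the fit. Without S38D asynchronous replicate 2, Ptpn6 (adjusted p = 0.000112), Plcg2 (0.00177) and Blnk (0.0497) were called for S38D minus WT. Ptpn6 and Plcg2 were called for S38A minus WT without either S38D asynchronous library (lowest adjusted p 0.00201 and 0.00856). With spike-in scaling, which shifted the median of all genes by 0.33 and 0.46 in these contrasts, the differences were -0.39 and -0.18 for Ptpn6 and -0.26 and -0.11 for Plcg2. With TMM scaling, the other members lay between -0.48 (Syk) and -0.03 (Lyn) for S38D minus WT. For S38A minus WT they lay between -0.22 (Syk) and 0.56 (Ptprc). For S38D minus S38A, the value nearest the threshold was that of Ptprc, at -0.70 (SE 0.234, adjusted p = 0.401). The rest lay between -0.35 (Bank1) and -0.0 (Lyn).

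The step between adaptor and enzyme can also be read within each library, free of library scaling, as the number of Plcg2 reads per Blnk read. The ratio was 0.325 ± 0.0508 in mitotic libraries, from 0.269 to 0.396, and 0.24 ± 0.0178 in asynchronous libraries, from 0.222 to 0.263 (SD, n = 6 each). The 2 states did not overlap, which held for 1 of the 5 ratios computed. WT mitotic cells had the highest ratio, 0.387 ± 0.0131, against 0.235 ± 0.00481 in WT asynchronous cells (SD, n = 2 each). Ptpn6 reads per Blnk read, which set the inhibitory phosphatase against the adaptor, numbered 0.382 ± 0.0569 in mitotic and 0.484 ± 0.0595 in asynchronous libraries, with ranges that overlapped (0.305 to 0.461 and 0.4 to 0.561). Plcg2 reads per Btk read, which set the enzyme against the kinase that activates it, numbered 0.703 ± 0.194 in mitotic and 0.56 ± 0.0708 in asynchronous libraries, with ranges of 0.517 to 1.02 and 0.464 to 0.659 that overlapped. In S38A this ratio was 0.607 ± 0.0545 in mitotic and 0.636 ± 0.0326 in asynchronous cells (SD, n = 2 each). These pairs were chosen with the values known, and the ratios are given as a description with no test.

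**Figure D3:**
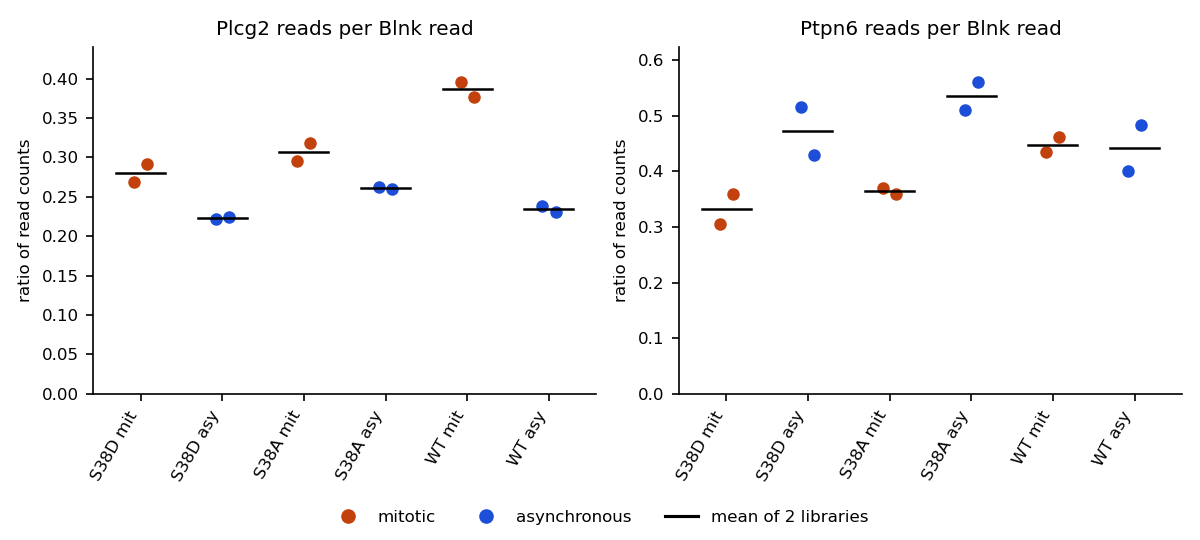
Plcg2 reads (left) and Ptpn6 reads (right) per Blnk read in each library, on linear axes that start at 0; each point is 1 library and each bar the mean of 2, with mitotic groups in orange and asynchronous groups in blue. Every mitotic point of the Plcg2 ratio (0.269 to 0.396) lies above every asynchronous point (0.222 to 0.263), while the Ptpn6 ratio is lower in mitotic than in asynchronous cells of S38D and S38A and about level in WT.

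In asynchronous cells, several of these genes were higher in the mutant lines than in WT when libraries were scaled to the bulk of the genes, and this rested on the scaling. In S38D, 4 of the 8 were higher: Ptprc (71.5 ± 1.62 CPM in S38D and 45.4 ± 5.25 CPM in WT, log2 fold change 0.65, SE 0.165, adjusted p = 0.0222), Btk (0.57, adjusted p = 0.0156), Ptpn6 (0.57, adjusted p = 0.0249) and Blnk (0.45, adjusted p = 0.0267). In S38A, 5 were higher: Ptpn6 (278 ± 5.42 CPM in S38A and 161 ± 16.5 CPM in WT, log2 fold change 0.79, SE 0.147, adjusted p = 0.00135), Syk (0.71, adjusted p = 0.00261), Plcg2 (0.66, adjusted p = 0.00161), Blnk (0.51, adjusted p = 0.00658) and Btk (0.47, adjusted p = 0.0196). Errors are SD with n = 2 in each group. Of all tested genes, 4.87% were called higher in S38D and 11.7% in S38A.

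In S38D, Syk (0.43, adjusted p = 0.0751) and Plcg2 (0.38, adjusted p = 0.0744) were not called, and they stood at 0.47 and 0.55 without S38D asynchronous replicate 2. Lyn was not called in either mutant line, at 0.02 in S38D (adjusted p = 0.948) and 0.20 in S38A (adjusted p = 0.303). Bank1 was not called either, at 0.28 (adjusted p = 0.392) and 0.42 (adjusted p = 0.137), and the S38A value passed without S38D asynchronous replicate 1 (0.46, adjusted p = 0.0483). Both comparisons share the 2 WT libraries, which are also the libraries with the lowest spike-in share. Scaling to the spike-ins shifted the median of all genes by -0.38 for S38D and -0.45 for S38A, and none of these higher calls was kept: the values were 0.06 (Blnk) to 0.29 (Ptprc) in S38D and 0.02 (Btk) to 0.32 (Ptpn6) in S38A. With that scaling Ptprc was called lower in S38A (-0.53, adjusted p = 0.0464). The S38D count was 0 without either WT asynchronous library, 1 (Ptprc) without S38D asynchronous replicate 1, 2 without S38D asynchronous replicate 1 and WT mitotic replicate 1 together, and 0 when the fit held the compared groups alone. The S38A count was 2 without WT asynchronous replicate 1 and 3 without WT asynchronous replicate 2.

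In mitotic cells the spike-in shares of the 3 lines were close (3.2% to 3.6%), and Btk was the gene called in both mutant lines. It averaged 160 ± 26.9 CPM in S38D, 185 ± 19.5 CPM in S38A and 112 ± 3.91 CPM in WT (SD, n = 2 each). Both S38D libraries and both S38A libraries lay above both WT libraries. The log2 fold change was 0.52 for S38D (SE 0.136, adjusted p = 0.0395) and 0.73 for S38A (SE 0.136, adjusted p = 0.00166), beside 1.15% and 8.31% of all genes called higher. The S38A call of Btk was kept in all 12 fits with a library left out and with spike-in scaling (0.73, adjusted p = 0.00861). The S38D call was kept in 3 of the 12, those without S38D asynchronous replicate 1 or 2 or S38D mitotic replicate 2, and was lost with spike-in scaling (0.48, adjusted p = 0.159).

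Syk (46.1 ± 4.04 CPM in S38A and 32.8 ± 2.57 CPM in WT, log2 fold change 0.49, SE 0.151, adjusted p = 0.0352) and Blnk (364 ± 12.0 CPM in S38A and 270 ± 16.1 CPM in WT, 0.43, SE 0.119, adjusted p = 0.0203) completed the 3 genes called higher in mitotic S38A cells. With spike-in scaling their values were 0.50 and 0.44 and did not pass (adjusted p = 0.117 and 0.059). The S38A count was 1 without WT mitotic replicate 2 or either S38A mitotic library. Without WT mitotic replicate 1, the calls of Syk and Blnk were lost (adjusted p = 0.0925 and 0.0746) and Ptprc was called (0.72, adjusted p = 0.0401). Ptprc stood at 0.48 with every library (adjusted p = 0.0707), and it was also called without S38D asynchronous replicate 1 or 2 (adjusted p = 0.0325 and 0.0378) and with the replicate number as a block (0.49, adjusted p = 0.0395). The other members, Plcg2, Ptpn6, Lyn and Bank1, lay between 0.09 and 0.34 and were not called. In mitotic S38D cells, Syk stood at -0.04 (adjusted p = 0.908) and Blnk at 0.25 (adjusted p = 0.291) against WT. Lyn, Bank1, Ptpn6 and Plcg2 lay between -0.22 and -0.01. Ptprc stood at 0.50 (adjusted p = 0.122) and was called without S38D asynchronous replicate 1 (0.52, adjusted p = 0.048).

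**Figure D4:**
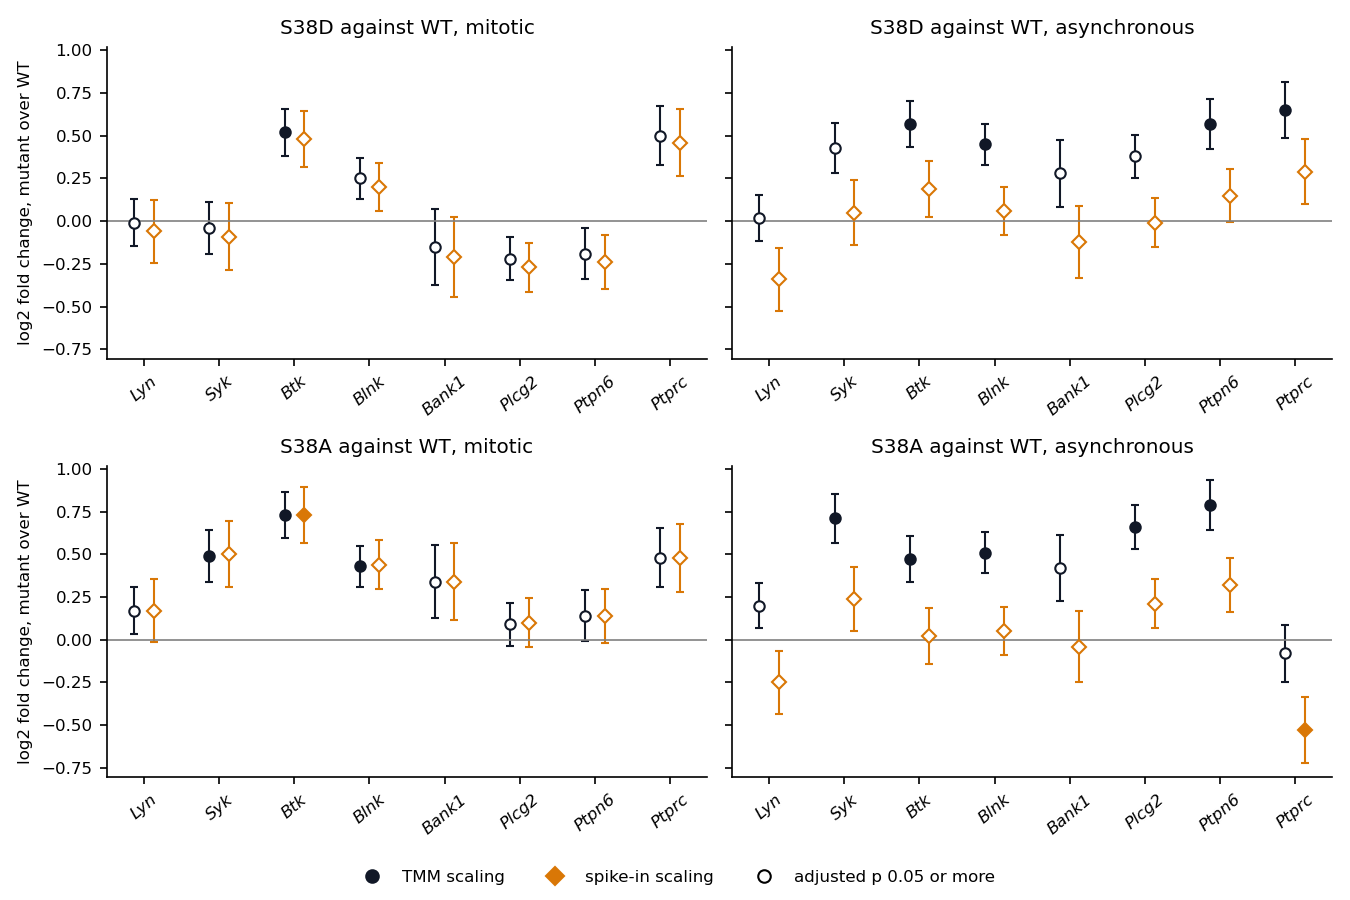
Log2 fold change (y axis, bars of 1 SE) of the 8 tested genes for S38D and S38A against WT, in mitotic (left) and in asynchronous cells (right), with TMM scaling (dark circles) and spike-in scaling (orange diamonds); open symbols have an adjusted p of 0.05 or more. The scalings lie close in mitotic cells, and in asynchronous cells the diamonds lie lower; Btk is between 0.47 and 0.73 in all 4 comparisons with TMM scaling and at 0.19 (S38D) and 0.02 (S38A) in asynchronous cells with spike-in scaling.

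The mutant lines were also compared with each other. In asynchronous cells 1 member was called, Ptprc, with 70.4 and 72.7 CPM in S38D and 47.1 and 39.0 CPM in S38A. The S38D libraries lay above both S38A libraries, and the log2 fold change was 0.73 (SE 0.163, adjusted p = 0.0116), beside 3.32% of all genes called higher. The call was kept with spike-in scaling (0.82, adjusted p = 0.0215) and lost without S38A asynchronous replicate 2 (highest adjusted p 0.162) and when the fit held these groups alone. Without S38D asynchronous replicate 1, 3 members were called, with Plcg2 (adjusted p = 0.0177) and Ptpn6 (adjusted p = 0.00267) lower in S38D. With every library in the fit, the members other than Ptprc lay between -0.29 (Plcg2) and 0.10 (Btk). In mitotic cells Ptprc stood at 0.03 (adjusted p = 0.943).

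In mitotic cells 1 member was called between the mutant lines, Syk, with 31.9 and 31.7 CPM in S38D and 43.2 and 48.9 CPM in S38A. The log2 fold change was -0.53 (SE 0.151, adjusted p = 0.023), beside 10.2% of all genes called lower. The call was lost without any 1 of the 4 libraries of these groups, by DESeq2 and with spike-in scaling (-0.59, adjusted p = 0.0588). Without S38D asynchronous replicate 1 or 2, 3 members were called lower, with Plcg2 and Ptpn6 added. With every library, Plcg2 stood at -0.32 and Ptpn6 at -0.33, Bank1 at -0.49, Btk at -0.21, and Lyn and Blnk at -0.19, none of them called.

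The order of the group means differed from gene to gene. For Lyn, Syk, Blnk, Bank1, Ptpn6 and Ptprc the 3 asynchronous groups held the 3 highest means, and for Syk, Blnk and Ptprc the lowest of them overlapped the highest mitotic group. For Btk, the mitotic S38A and S38D groups (185 and 160 CPM) came above the asynchronous WT group (154 CPM); the libraries of asynchronous WT overlapped those of mitotic S38D and lay below those of mitotic S38A. For Blnk these neighbours were asynchronous WT (366 CPM) and mitotic S38A (364 CPM). For Plcg2, asynchronous WT (86.0 CPM) was the lowest of the 6 groups and overlapped mitotic S38D (89.6 CPM). Asynchronous S38A had the highest mean of Lyn, Syk, Blnk, Plcg2, Bank1 and Ptpn6, and asynchronous S38D that of Btk and Ptprc. These orders hold for TMM scaling and partly change with spike-in scaling. Asynchronous WT then averaged 112 CPM for Plcg2, above mitotic S38D (83.1 CPM). For Btk it averaged 200 CPM, above mitotic S38A (178 CPM) and mitotic S38D (149 CPM). The highest mean of Lyn (109 CPM) and of Bank1 (26.2 CPM) was then that of asynchronous WT, and that of Blnk (496 CPM) was asynchronous S38D.

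Across the 12 libraries, the 21 pairs of members other than Plcg2 had Pearson correlations of log2 CPM between 0.62 and 0.96, with a median of 0.82. The 7 pairs with Plcg2 had correlations of 0.17 to 0.67, with a median of 0.53. The libraries share the change of state and of line, so these values are a description. Among 7062 genes that averaged 10 CPM or more, those with the pattern most like each member over the 12 libraries were Setd7 for Lyn (r = 0.97), Bub3 for Syk (0.982), Cstf2 for Btk (0.955), Wdhd1 for Blnk (0.98), Fzr1 for Bank1 (0.989), Exoc8 for Plcg2 (0.957), Rac2 for Ptpn6 (0.985) and Slc4a7 for Ptprc (0.94). The next in each case were Hdac9, Mtss1, Ppil4, Mtmr14, Hcls1, Tln1, Pold1 and Lpp, with r between 0.94 and 0.985.

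The members sit within a wider pathway, and a list of 92 other genes of B cell receptor signalling gave 80 that could be tested. In the mean mitotic comparison 34 of the 80 fell and 2 rose, beside 21.6% of all tested genes called lower, with a median log2 fold change of -0.27 over the list and -0.02 over all genes, and the count called was 32 to 45 in fits with 1 library left out. By role, 4 of 6 receptor and co-receptor genes fell, 8 of 13 other kinases and phosphatases, 6 of 12 adaptors and exchange factors, and 6 of 12 inhibitors, of which 1 rose. In the branches below Plcg2, 4 of 14 genes of the calcium branch, 3 of 11 of the NF-kB branch and 3 of 12 of the RAS-MAPK branch fell, and 1 of the last rose. These branch counts are near the share of all genes called lower. That share belongs to the fit with every library, and none is given for the fits with 1 library left out.

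Near the receptor, Cd79b, a signalling subunit of the receptor, averaged 534 ± 54.4 CPM in mitotic libraries and 815 ± 110 CPM in asynchronous libraries (log2 fold change -0.60, SE 0.0709, adjusted p = 5.1e-06). The complement receptor Cr2, a co-receptor, averaged 42.6 ± 12.7 and 87.2 ± 37.1 CPM (-0.95, adjusted p = 2.3e-07). Pik3cd, the catalytic subunit of the B cell PI3K, averaged 213 ± 18.6 and 381 ± 59.4 CPM (-0.82, adjusted p = 4.51e-08). These genes fell together with the members above.

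Among the inhibitors, the adaptor Dok3 averaged 22.6 ± 6.44 CPM in mitotic libraries and 54.2 ± 17.2 CPM in asynchronous libraries (-1.24, adjusted p = 5.39e-07), and the lipid phosphatase Inpp5d (SHIP-1) 142 ± 17.0 and 242 ± 62.4 CPM (-0.74, adjusted p = 9.91e-07). Both activating and inhibitory genes were among those lower in mitotic cells. In the calcium branch, Ppp3ca, a catalytic subunit of calcineurin, averaged 82.3 ± 6.83 and 146 ± 29.0 CPM (-0.81, adjusted p = 1.71e-06). All errors in these sentences are SD over 6 libraries. Hras, a RAS GTPase, and Lair1, an inhibitory receptor, were the genes called higher (0.40, adjusted p = 0.000442, and 0.77, adjusted p = 0.0113). With spike-in scaling 44 of the 80 genes fell and 0 rose. Of all 10477 tested genes, that scaling called 3344 lower and 1035 higher.

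**Figure D5:**
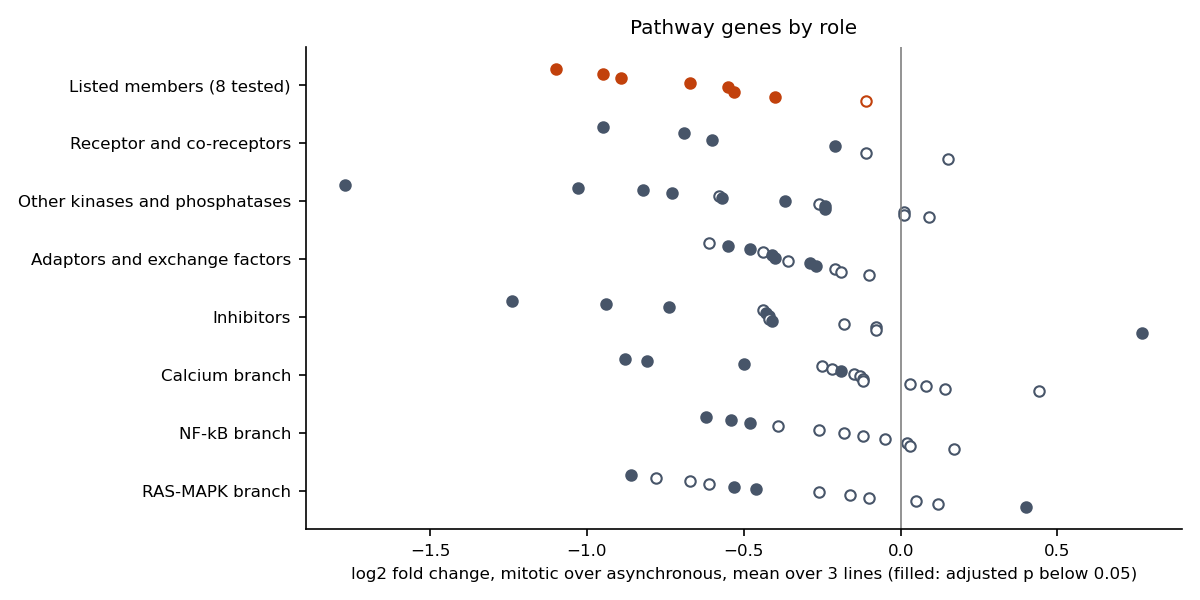
Mitotic over asynchronous log2 fold change, mean over the 3 lines, of the 8 tested members (top row) and of the 80 tested genes of the wider list by role; each point is 1 gene, filled where the adjusted p is below 0.05. The members lie between -1.10 and -0.11, and the 80 other genes have a median of -0.27.

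Between lines, the wider list held genes with larger log2 fold changes than any member. Ptprcap, which encodes a transmembrane partner of CD45, had 0.778 ± 0.65 CPM in S38D, 0.244 ± 0.101 CPM in S38A and 33.7 ± 4.01 CPM in WT asynchronous libraries, and 0.181 ± 0.256, 0.448 ± 0.133 and 33.2 ± 1.66 CPM in the mitotic libraries of these lines (SD, n = 2 each). Lat2, an adaptor phosphorylated by Syk and Lyn, averaged 12.2 ± 2.29 CPM in S38D, 21.5 ± 0.843 CPM in S38A and 78.0 ± 3.32 CPM in WT asynchronous libraries, with adjusted p = 2.61e-07 for S38D and 1.68e-06 for S38A. Fyn, a Src family kinase like Lyn, averaged 14.5 ± 3.45 CPM in S38D, 7.1 ± 0.453 CPM in S38A and 68.2 ± 4.24 CPM in WT asynchronous libraries, with adjusted p = 2.45e-06 and 4.52e-08. These 3 genes were lower in both mutant lines in both states, with TMM and with spike-in scaling, in every fit with a library left out. Beside them in the same asynchronous libraries, the log2 fold change of Ptprc, the partner of Ptprcap, was 0.65 in S38D and -0.08 in S38A with TMM scaling (0.29 and -0.53 with spike-in scaling). That of Lyn, a relative of Fyn, was 0.02 in S38D and 0.20 in S38A (-0.34 and -0.25 with spike-in scaling).

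Of the receptor and co-receptor genes, 5 of 6 were called higher in asynchronous S38A cells against WT, and 1 of 6 higher and 1 of 6 lower in S38D. With spike-in scaling 2 of the 6 were called higher in S38A, and 1 higher and 2 lower in S38D. Cr2 averaged 101 ± 9.36 CPM in S38D, 120 ± 3.12 CPM in S38A and 41.0 ± 3.92 CPM in WT asynchronous libraries (SD, n = 2 each) and was called higher in both lines also with spike-in scaling (0.91, adjusted p = 0.00175, in S38D and 1.10, adjusted p = 0.000179, in S38A). Among the inhibitors, the co-receptor Cd22, which recruits Ptpn6, averaged 317 ± 46.2 CPM in S38D, 390 ± 11.5 CPM in S38A and 176 ± 1.96 CPM in WT and was likewise called under both scalings. Over the whole list, 11 of 80 genes were higher and 10 lower in asynchronous S38D cells, and 19 higher and 12 lower in S38A cells. Of all tested genes, 4.87% were called higher and 4.12% lower in S38D, and 11.7% higher and 9.54% lower in S38A. These shares belong to the fit with every library. No share of all genes is given for the fits with 1 library left out, so counts from those fits cannot be set beside them. With 1 library left out, the S38D count of called genes was 10 without WT asynchronous replicate 1, 12 without WT asynchronous replicate 2 and 45 without S38D asynchronous replicate 2, and the S38A count was 19 without WT asynchronous replicate 1. With spike-in scaling the S38D calls were 3 higher and 14 lower, and the S38A calls 3 higher and 25 lower. Of all 10477 tested genes, that scaling called 58 higher and 1307 lower in S38D, and 202 higher and 3115 lower in S38A.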

How the data were processed

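The deposited files hold raw counts, 1 whole number of reads per gene and library, with ERCC spike-ins, and no normalization. Per the submitters' processing notes, bcl2fastq 2.16.0.10, cutadapt 1.12 and STAR 2.5.3a were used with build mm10; the counting program, its strand setting and its handling of reads with several matches are not given in any source used here. Per the labels, 1 QuantSeq 3′ library was made per sample.

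Symbols and coordinates came from GENCODE M21 (GRCm38), which matched 99.63% of gene identifiers. After filterByExpr at a minimum count of 10, 10477 genes were fitted on all 12 libraries, with a mean per group, in edgeR 4.0.16 (R 4.3.3) with TMM factors and robust quasi-likelihood F tests (6 residual degrees of freedom). Benjamini-Hochberg adjustment ran over all genes within each of 13 comparisons. The SE is the log2 fold change divided by the square root of F. The procedure was tested on simulated data. DESeq2 1.42.0, other scalings, filters, fits and left-out libraries were alternatives.

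The members, the wider list and the tests were chosen with earlier results of these data known. All 9 members were to be named in every comparison. The 8 tested have values in most comparisons, some given as a range, and some values within a line are in a figure alone. Of the wider list, up to 6 called genes per comparison with a mean of at least 10 CPM and the smallest adjusted p were eligible. Of genes alike in pattern, the 2 with the highest r were eligible. Some genes of the wider list are counted but not reported here by name. Others (Blk, and Hras and Lair1 in the mean mitotic comparison, and the protein kinase C genes) were named after their values were seen. Nothing in the labels says that replicates came from separate cultures, so p-values measure only how far these samples spread, which may be technical variation.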

Additional observations from a re-analysis of the deposited data

How the results depend on the processing

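The mean mitotic result kept its 7 calls, all lower, under each alternative, and spike-in scaling added Plcg2 (8 calls). That scaling called 3344 of all 10477 tested genes lower in this comparison. Counts of members called moved by more than 1.5 times as follows. With spike-in scaling the count was 0 for S38D and 1 for S38A against WT in asynchronous cells, 0 for S38D and 1 for S38A against WT in mitotic cells, 0 for S38D against S38A in mitotic cells, and 1 (Ptprc, 1.01, adjusted p = 0.0473) for the mitotic change in S38A minus WT. In that last contrast spike-in scaling called 482 of all 10477 tested genes higher and 9 lower, with a median of 0.46 over all genes. For S38A against WT it called 526 genes higher and 607 lower in mitotic cells. With only the groups compared the count of members was 4 for the mitotic comparison in S38D, 0 for S38D against WT in asynchronous and in mitotic cells, 0 and 3 for S38D against S38A in asynchronous and mitotic cells, and 2 for the mitotic change in S38A minus WT. With both far libraries left out it was 2 for S38D against WT and 3 for S38D against S38A in asynchronous cells, 3 for S38D against S38A in mitotic cells and 3 for the mitotic change in S38A minus WT. Without a filter it was 2 for the mitotic change in S38D minus WT and 1 in S38A minus WT, and by DESeq2 it was 0 for S38D against S38A in mitotic cells. Apart from spike-in scaling, the shares of all genes called under these alternatives are not given here, so those counts have no baseline. The cause was not tested.

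With each library left out in turn, the count ranged from 7 to 8 (mean mitotic), 5 to 8 (S38D), 3 to 6 (S38A) and 2 to 8 (WT), from 0 to 6 for S38D and 2 to 6 for S38A against WT in asynchronous cells, from 0 to 2 and 1 to 4 in mitotic cells, and from 0 to 3 for S38D against S38A in each state. For the mitotic change it ranged from 0 to 3 in S38D minus WT, 0 to 2 in S38A minus WT, and it stayed at 0 in S38D minus S38A. A lone library is then taken to vary like those of other groups. The share of all genes called in each of these fits is not given here. Of 2072 values of single members under an alternative, 1893 stayed on their side of the threshold, 103 lost a call, 56 gained one and 20, called in neither fit, changed sign and moved by more than 1 SE; no called value changed sign, and 73 uncalled values did, these 20 among them.

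Replicate numbers were shared between groups but gave no pairing common to all groups. Of 15 correlations of replicate differences over 5516 genes, 3 were above 0.1 and 3 below -0.1 (-0.452 to 0.83). The differences of S38D asynchronous, WT mitotic and S38A mitotic cells correlated with each other at 0.611 to 0.83. Those of S38A asynchronous cells correlated with each of these at -0.452 to -0.415. The source of this shared difference was not tested, and a block takes the replicate difference as equal in all groups. With the replicate number as a block, Ptprc was added for S38A against WT in mitotic cells (0.49, adjusted p = 0.0395), which made 4 calls, and no other member's call changed. The depth limits Bank1 most, with 41 to 177 reads per library.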

Other observations

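Cd72, an inhibitory co-receptor that recruits Ptpn6, was higher in S38D: 170 ± 3.01 CPM in S38D and 64.1 ± 9.71 CPM in WT asynchronous libraries (log2 fold change 1.40, SE 0.133, adjusted p = 6.03e-06), and 149 ± 7.48 CPM in S38D and 47.0 ± 2.67 CPM in WT mitotic libraries (1.66, SE 0.135, adjusted p = 1.22e-06). With TMM scaling Cd72 was also higher in S38A than in WT, at 118 ± 11.6 CPM in S38A asynchronous libraries (0.87, SE 0.132, adjusted p = 0.000268) and 77.1 ± 6.27 CPM in S38A mitotic libraries (0.71, SE 0.134, adjusted p = 0.00171). Spike-in scaling kept both S38D calls of Cd72 (1.04 in asynchronous and 1.61 in mitotic cells). In asynchronous S38A cells that scaling called 1 inhibitor higher, Cd22, so the Cd72 call was lost. Ighm, the heavy chain of the receptor, had 183 ± 24.0 CPM in S38D and 342 ± 3.7 CPM in S38A asynchronous libraries (-0.90, SE 0.111, adjusted p = 0.000102). In WT asynchronous libraries it had 212 ± 3.07 CPM. Against WT, with TMM scaling, Ighm was called higher in S38A (0.69, adjusted p = 0.000453) and was not called in S38D (-0.22, adjusted p = 0.246). Spike-in scaling shifted the median of all genes by -0.45 for asynchronous S38A against WT. It called 2 of the 6 receptor and co-receptor genes higher there, Cr2 among them.

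The calcium sensor Stim1 was higher in S38D than in S38A, at 143 ± 1.38 CPM in S38D and 98.1 ± 4.81 CPM in S38A asynchronous libraries (0.55, SE 0.115, adjusted p = 0.00814), and this call was lost without either S38A asynchronous library (highest adjusted p 0.107). In mitotic libraries it had 156 ± 0.707 CPM in S38D and 90.7 ± 0.894 CPM in S38A (0.78, SE 0.116, adjusted p = 0.000305). In WT, Stim1 had 107 ± 6.04 CPM in asynchronous and 140 ± 17.9 CPM in mitotic libraries. The mitotic change of Tab2, an adaptor of the NF-kB branch, differed between S38A and WT by 1.22 (SE 0.245, adjusted p = 0.0289), and this call was kept in 3 of the 12 fits with a library left out.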
